A study of Mus musculus with 8 samples.

Results

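The actomyosin and smooth muscle contractile genes were followed in head mesenchyme of mouse embryos. They are 34 genes chosen by symbol, with all 34 present among the 23420 genes of the deposited table and all 34 among the 14249 genes that passed the filter on low values. RNA was sequenced from early migrating mesenchyme (EMM) and from supraorbital mesenchyme (SOM), with 4 libraries per region. All embryos were wild-type C57BL/6 at E12.5, and each library came from the combined tissue of 4 to 5 embryos, freed of surface ectoderm and brain after a dispase digestion. The sources used here do not say whether an EMM pool and a SOM pool shared embryos, and p-values measure the spread between pools.

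Actomyosin is the contractile machine of animal cells. Filaments of actin, bound by tropomyosin and calponin, are pulled by bipolar filaments of myosin II, which is switched on when myosin light chain kinase phosphorylates its regulatory light chain. Every cell builds such filaments from ubiquitous isoforms for migration, adhesion and division. Smooth muscle cells, pericytes and activated fibroblasts add isoforms encoded by separate genes, among them Acta2, Tagln, Cnn1 and Myh11, many of which are transcribed through serum response factor (SRF) bound to CArG boxes. In the head, such genes are known from the walls of vessels and are also expressed by some mesenchymal cells.

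The libraries held 12.7 to 22.4 M recovered reads in EMM and 16.8 to 33.7 M in SOM. Values are the authors' normalized counts, in which 1 read was worth 0.638 to 1.81. Differences are EMM minus SOM on the log2(normalized count + 1) scale, fitted with limma over the 14249 tested genes and called at a Benjamini-Hochberg adjusted p below 0.05. Calls toward EMM took 36.1% of all tested genes and calls toward SOM 36.0%. Of 10 head mesenchyme markers, 6 were higher in EMM and 4, Twist1, Twist2, Prrx1 and Prrx2, higher in SOM. Their summed normalized count, carried mostly by the collagen genes Col1a1, Col1a2 and Col3a1, was 843090 to 979357 in EMM libraries and 313004 to 369567 in SOM libraries, against 1408 to 1966 in EMM and 1667 to 1955 in SOM for 12 brain and ectoderm markers. Along the leading principal component (85.4% of variance) the regions lay apart.

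The contractile genes were mostly higher in EMM, and the smooth muscle isoforms differed far more than the ubiquitous ones. Of the 34 genes, 30 were higher in EMM, where the background is 36.1% of all tested genes, and 2 were higher in SOM, where it is 36.0%, which makes 32 in either direction against 72.1%. Without overlap between the regions were 30 genes, 28 with EMM higher and 2 with SOM higher, against backgrounds of 66.1%, 33.2% and 32.9%. The median difference was 0.82, against -0.01 over all tested genes. By class, 10 of 10 smooth muscle isoforms and genes were higher in EMM with a median of 2.26, 7 of 7 genes with both smooth muscle and non-muscle products with a median of 0.94, and 13 of 17 ubiquitous isoforms and genes with a median of 0.63. At least 2-fold higher in EMM were 8 smooth muscle genes and 3 of the genes with both kinds of product, and 0 of the ubiquitous ones, against a background of 11.0%. None was at least 2-fold higher in SOM, where the background is 5.19%. The plot of differences by class shows the smooth muscle group reaching 4.94 and the ubiquitous group ending at 0.99. In bulk tissue, fewer cells of a type and less RNA per cell cannot be told apart.

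**Figure D1:**
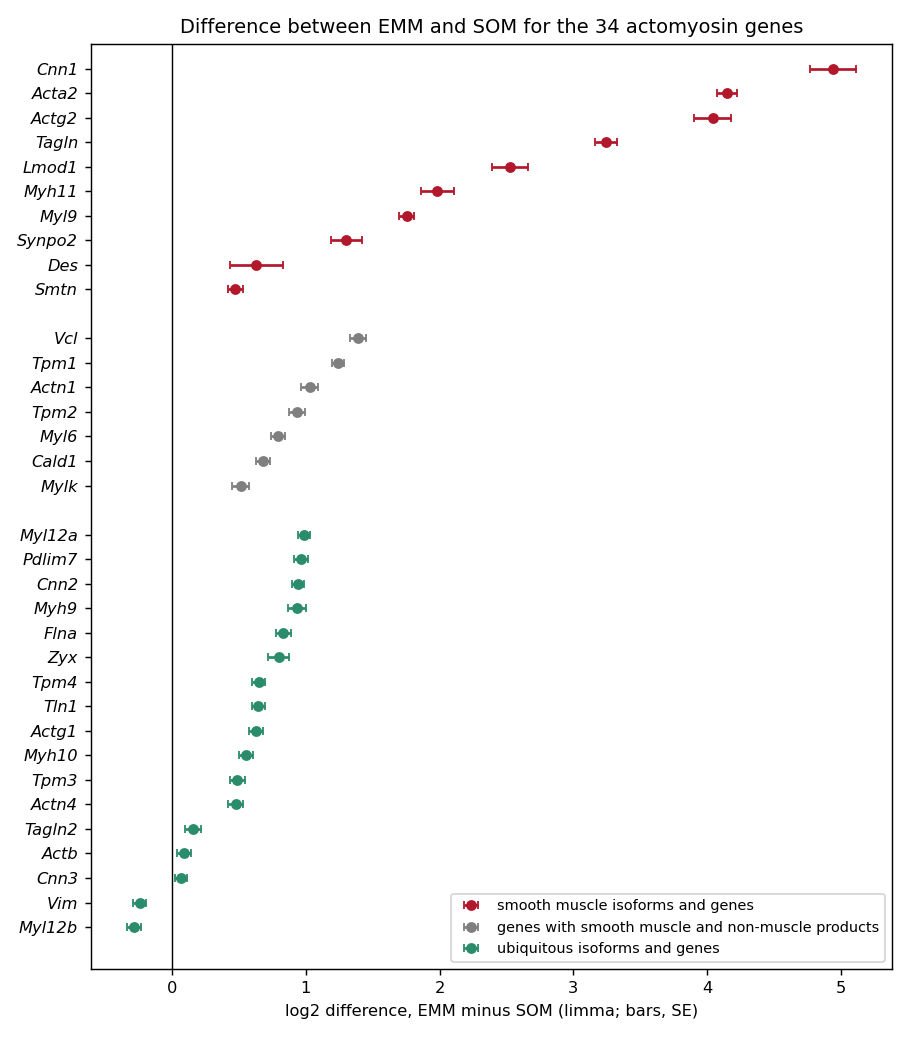
Fitted log2 difference, EMM minus SOM (x axis), for each of the 34 genes, with bars for the SE and genes grouped from top to bottom as smooth muscle, both kinds of product and ubiquitous. Cnn1 lies farthest right at 4.94, and Vim and Myl12b lie left of 0.

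The smooth muscle actins were among the genes with the greatest shift. Acta2, the alpha actin of vascular smooth muscle and myofibroblasts, had 41418, 37072, 34954 and 39442 normalized counts in EMM replicates 1 to 4, against 1992, 1950, 2274 and 2451 in SOM replicates 1 to 4. Its lowest EMM library was thus far above its highest SOM library, and the fold of the means was 17.6 (log2 difference 4.14, SE 0.07, limma adjusted p = 5.51e-14). Actg2, the gamma actin of gut and other visceral smooth muscle, had 2531, 2431, 2085 and 2285 in EMM against 156, 108, 129 and 179 in SOM. It was 16.3-fold higher in EMM without overlap (log2 difference 4.04, SE 0.14, limma adjusted p = 1.52e-09). On GRCm38, Acta2 lies on chromosome 19 from 34241090 to 34255590 and Actg2 on chromosome 6 from 83512905 to 83536265, both on the minus strand. Of the 50-base windows in their annotated transcripts, 0.326% for Acta2 and 0% for Actg2 also occur in a transcript of another gene. The actins of striated muscle were scarce, with 64 reads of Acta1 and 67 of Actc1 over the 4 EMM libraries and 29 and 39 over the 4 SOM libraries, where Acta2 had 123767 reads in EMM and 11602 in SOM.

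Actin-binding proteins of the smooth muscle thin filament followed the same direction. Cnn1, calponin 1, which binds actin and slows the myosin motor, had 1405, 1119, 1332 and 1447 normalized counts in EMM against 36.5, 30.8, 48.5 and 57.4 in SOM. At 30.6-fold (log2 difference 4.94, SE 0.17, limma adjusted p = 3.34e-10) it had the greatest difference of the 34 genes and ranked 14 of all tested genes toward EMM. Tagln, transgelin or SM22, an early marker of the smooth muscle lineage, had 15004, 12744, 14720 and 16024 in EMM against 1482, 1390, 1785 and 1529 in SOM. That is 9.46-fold higher in EMM (log2 difference 3.24, SE 0.08, limma adjusted p = 5.51e-12). Of the Tagln windows, 58.3% are shared with Pcsk7 or Gm48529, which lie on the opposite strand, and whether the counting used the strand is not stated. Pcsk7 itself stood at 796 ± 41.3 in EMM and 806 ± 46.9 in SOM (SD, n = 4 each). Lmod1, leiomodin 1, which nucleates actin filaments in smooth muscle, had 595, 472, 691 and 596 in EMM against 76.8, 106, 113 and 110 in SOM, a fold of 5.80 (log2 difference 2.53, SE 0.14, limma adjusted p = 5.93e-10).

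Smooth muscle myosin was also higher in EMM, but at low levels for its heavy chain. Myh11, the smooth muscle myosin heavy chain and a marker of differentiated smooth muscle, had 542, 427, 418 and 475 normalized counts in EMM against 137, 111, 91.9 and 131 in SOM. The regions did not overlap and the fold was 3.96 (log2 difference 1.98, SE 0.13, limma adjusted p = 1.26e-09). Myl9, the regulatory light chain of smooth muscle, had 17483, 16064, 17198 and 18165 in EMM against 4906, 5054, 5610 and 4870 in SOM, a fold of 3.37 with an SE of 0.05 on the log2 difference of 1.75. Per kb of annotated exon, Myl9 stood at 15273 normalized counts in EMM and 4530 in SOM, while Myh11 stood at 70.4 in EMM and 17.8 in SOM, so that the light chain was far more abundant than the heavy chain in both regions.

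The remaining smooth muscle genes differed less. Synpo2, synaptopodin 2, an actin-bundling protein of the Z-disc and of dense bodies, had 1045, 734, 1035 and 847 in EMM against 374, 369, 314 and 413 in SOM, a fold of 2.49. Smtn, smoothelin, a marker of contractile smooth muscle, was 1.39-fold higher in EMM at 3402 ± 212 against 2446 ± 117 in SOM. Des, the muscle intermediate filament desmin, had 157 reads over the EMM libraries and 167 over the deeper SOM libraries. Its normalized counts were 43.9, 39.8, 53.3 and 55.2 in EMM against 25.2, 30.1, 28.1 and 40.1 in SOM, so that EMM replicate 2 overlapped SOM replicate 4 (log2 difference 0.63, SE 0.20, limma adjusted p = 0.00898). Per kb, Des and Myh11 were the least abundant of the 34 genes in EMM, at 15.9 and 70.4, and Des was lowest in SOM at 10.2. The name smooth muscle describes here the genes, and no cell type was named from them. Without overlap between the regions were 9 of the 10 smooth muscle genes, with Des the exception, against a background of 33.2% for EMM above SOM.

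**Figure D2:**
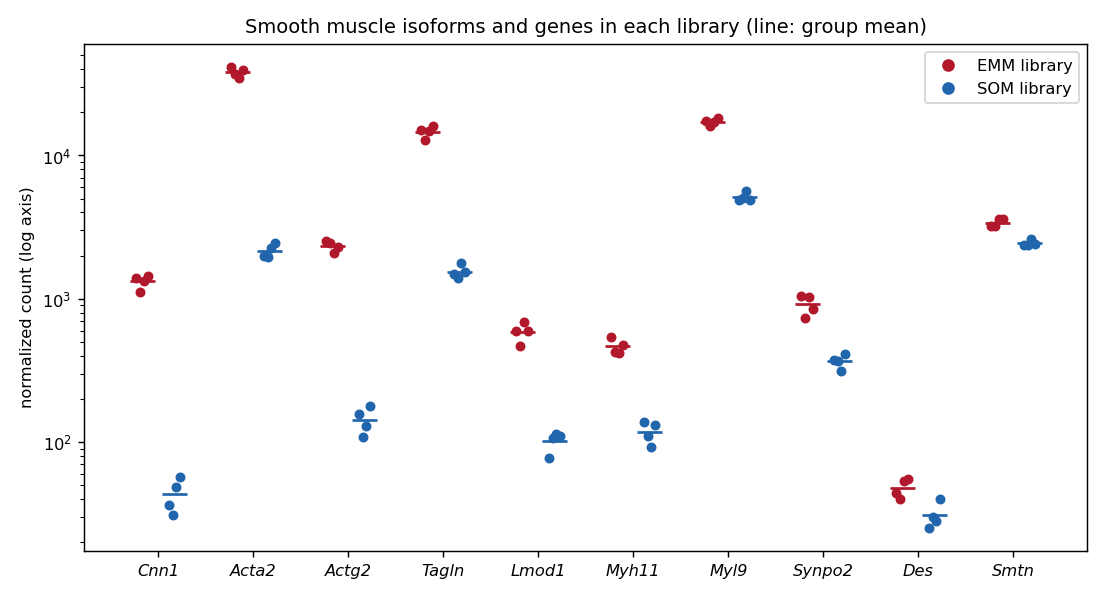
Normalized count (log axis) of the 10 smooth muscle isoforms and genes in each of 4 EMM and 4 SOM libraries, with a line for each group mean. All EMM points lie above all SOM points except for Des, where EMM replicate 2 at 39.8 is just below SOM replicate 4 at 40.1.

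Genes that give smooth muscle and non-muscle proteins by splicing or alternative starts had a median difference between those of the other classes, and these counts do not separate their products. Their range of 0.51 to 1.39 overlapped that of the ubiquitous genes, and Smtn among the smooth muscle genes lay below it at 0.47. Tpm1, a tropomyosin that runs along actin filaments, had 41850, 39731, 39232 and 44185 in EMM against 17468, 16972, 17776 and 17425 in SOM, a 2.37-fold difference (SE 0.05 on the log2 difference of 1.24). Vcl, vinculin, which links integrin adhesions to actin and has a muscle form called metavinculin, stood at 10293 ± 367 in EMM against 3931 ± 337 in SOM, a fold of 2.62. It shares 25.1% of its windows with the opposite-strand gene Ap3m1, which stood at 2104 ± 132 in EMM and 1909 ± 126 in SOM. Actn1, an alpha-actinin that crosslinks actin, was 2.05-fold higher in EMM, Tpm2 1.91-fold, the essential light chain gene Myl6 1.73-fold and caldesmon, Cald1, 1.60-fold. Mylk, the kinase that activates the regulatory light chain, had the smallest difference of the 7, at 1519, 1413, 1483 and 1389 in EMM against 1083, 901, 1011 and 1077 in SOM. The limma adjusted p was at most 1.97e-06 for these 7 genes. Their regions did not overlap, with EMM higher in each, against a background of 33.2% of all tested genes.

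Ubiquitous isoforms differed from each other within the same family. The cytoplasmic beta actin gene Actb had 85485, 91611, 95039 and 95748 normalized counts in EMM against 88304, 91188, 82957 and 82610 in SOM, with overlap and no call (log2 difference 0.09, SE 0.05, limma adjusted p = 0.108). Cytoplasmic gamma actin, Actg1, had 112732, 113687, 112293 and 113369 in EMM against 69926, 68332, 74984 and 79764 in SOM, a fold of 1.54 without overlap (limma adjusted p = 1.21e-08). The ratio of Actg1 to Actb was 1.23 ± 0.0644 in EMM and 0.853 ± 0.0996 in SOM (SD, n = 4 each), and its ranges did not overlap. Of the Actg1 windows 37.4% and of the Actb windows 9.12% also occur in other genes, among them Actg-ps1, so the split of reads between them is uncertain. Actb was called without EMM replicate 1 (log2 difference 0.13, limma adjusted p = 0.0377) and was below 0 with reads-per-million scaling (-0.020).

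The calponins and transgelins showed the same kind of split. Cnn2, a calponin of non-muscle cells, stood at 31456 ± 1782 in EMM against 16343 ± 315 in SOM, a fold of 1.92, while Cnn3, the acidic calponin, stood at 15738 ± 425 in EMM and 14991 ± 579 in SOM with overlap and no call (limma adjusted p = 0.166; -0.042 with reads-per-million scaling). Of the Cnn3 windows, 24.0% also occur in other genes. Tagln2, the ubiquitous transgelin, had 1771, 1686, 2002 and 1923 in EMM against 1637, 1671, 1751 and 1556 in SOM. Its libraries overlapped, and its call (log2 difference 0.16, SE 0.06, limma adjusted p = 0.0285) was lost with TMM (limma adjusted p = 0.0650), upper quartile (0.0676) and reads-per-million scaling (0.516). It was also lost without EMM replicate 3 (0.103), EMM replicate 4 (0.0867), SOM replicate 1 (0.0598) or SOM replicate 4 (0.0752), and with 3 libraries (EMM replicate 2, EMM replicate 3, SOM replicate 4) left out together (0.0988).

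The neighbouring light chain genes Myl12a and Myl12b on chromosome 17 went in opposite directions. Myl12a, a ubiquitous regulatory light chain, had 11880, 11367, 11334 and 12186 in EMM against 5955, 6006, 5723 and 5884 in SOM, a fold of 1.98. Myl12b, its near-identical neighbour, had 1503, 1601, 1443 and 1523 in EMM against 1872, 1894, 1877 and 1724 in SOM, and was 1.21-fold higher in SOM without overlap (log2 difference -0.28, SE 0.05, limma adjusted p = 0.000163). Their ratio was 7.71 ± 0.416 in EMM and 3.20 ± 0.152 in SOM. Because 21.1% of the Myl12a windows and 19.1% of the Myl12b windows are shared with other genes, mostly with each other, the split between them depends on how the authors counted such reads.

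Non-muscle myosin heavy chains, tropomyosins and the mesenchymal intermediate filament completed the families. Myh9, the heavy chain of non-muscle myosin IIA, was 1.92-fold higher in EMM at 16983 ± 1813 against 8860 ± 551 in SOM, and Myh10, that of myosin IIB, 1.47-fold at 26765 ± 1024 against 18258 ± 1180. Tpm4 was 1.57-fold and Tpm3 1.40-fold higher in EMM, but 15.7% of the Tpm4 windows and 23.2% of the Tpm3 windows also occur in other genes, so their counts are uncertain to that extent. Vim, vimentin, the intermediate filament of mesenchymal cells, was the other gene higher in SOM, with 46023, 46896, 45605 and 48710 in EMM against 52265, 57177, 58631 and 53160 in SOM, a fold of 1.18 toward SOM without overlap (log2 difference -0.24, SE 0.05, limma adjusted p = 0.000301).

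**Figure D3:**
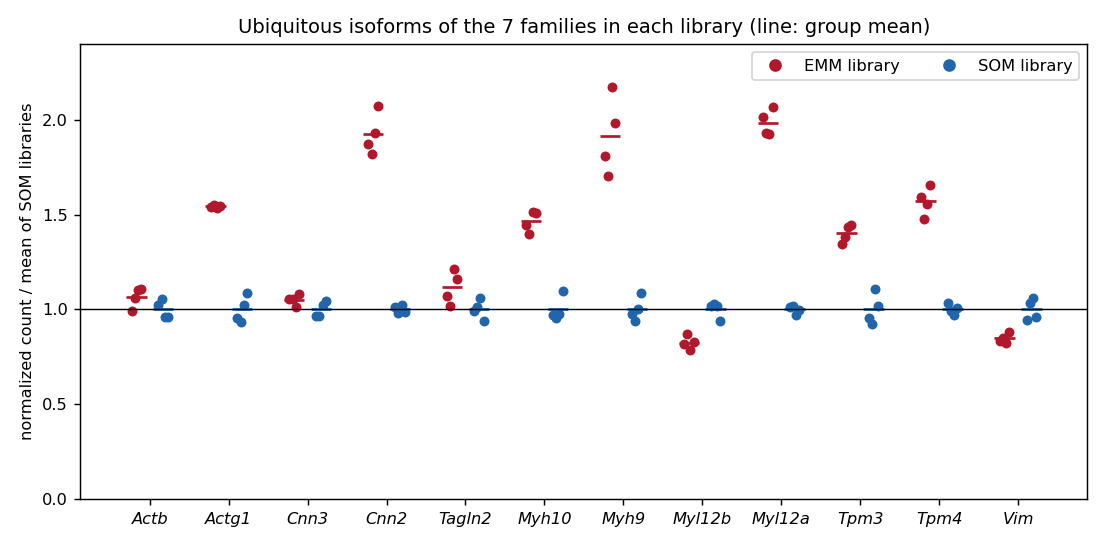
Normalized count of 12 ubiquitous isoforms in each library, divided by the mean of the SOM libraries, with a line for each group mean. Myl12a, Cnn2 and Myh9 lie near 1.9 to 2.0 in EMM, Actb, Cnn3 and Tagln2 overlap SOM, and Myl12b and Vim lie below SOM in every EMM library.

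All 5 genes of ubiquitous crosslinkers and adhesion proteins were higher in EMM, against a background of 36.1% of all tested genes. Flna, filamin A, which crosslinks actin into networks and binds integrins, had 76078, 70323, 79492 and 78683 in EMM against 39076, 42438, 43143 and 46411 in SOM, a fold of 1.78. Pdlim7, an adaptor of actin bundles, was 1.95-fold higher, Zyx, the tension-sensitive adhesion protein zyxin, 1.74-fold, Tln1, the integrin activator talin, 1.57-fold, and Actn4, a non-muscle actinin, 1.40-fold. The limma adjusted p was at most 1.14e-06 for these 5 genes.

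Smooth muscle or muscle isoforms were compared with their ubiquitous relatives inside each library as a ratio, which does not depend on the scaling between libraries. For tropomyosin the numerator is Tpm1 and Tpm2, which also give non-muscle products, so that ratio does not isolate muscle isoforms. The ratio was higher in EMM in all 7 families and the groups did not overlap in any of them. Acta2 and Actg2 together took 18.1%, 16.1%, 15.2% and 16.6% of the normalized counts of the 4 actin genes in EMM replicates 1 to 4, against 1.34%, 1.27%, 1.499% and 1.59% in SOM replicates 1 to 4, a 13.7-fold change in the ratio to Actb and Actg1. Cnn1 took 2.73% ± 0.233 of calponin counts in EMM against 0.138% ± 0.0357 in SOM, a 20.8-fold change in ratio. Tagln took 88.8% ± 0.702 of transgelin counts in EMM against 48.2% ± 2.26 in SOM (8.49-fold). The smooth muscle transgelin was thus the main form by count in EMM and about as common as the ubiquitous form in SOM.

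The other families shifted by less. Myh11 took 1.06% ± 0.155 of heavy chain counts in EMM against 0.432% ± 0.0716 in SOM (2.47-fold in ratio), so that non-muscle heavy chains made up nearly all of the counts in both regions. Myl9 took 56.6% ± 0.887 of regulatory light chain counts in EMM against 39.8% ± 1.82 in SOM (1.98-fold). Its annotated exons are shorter than those of Myl12a and Myl12b. Per kb of exon it made up 73.6% of the family in EMM and 58.4% in SOM, the largest part in both regions. Tpm1 and Tpm2 together took 57.04% ± 0.848 of tropomyosin counts in EMM against 46.7% ± 0.451 in SOM (1.51-fold), and Des took 0.103% ± 0.0151 of the Des and Vim counts in EMM against 0.0560% ± 0.0131 in SOM (1.85-fold). For each of the 7 ratios the exact two-sided permutation test over the 8 libraries gave p = 0.0286, the smallest that 4 against 4 can give, and 0.0286 after Benjamini-Hochberg adjustment over the 7 families. The genes were chosen with earlier results of these data known, so these p-values are not independent support.

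**Figure D4:**
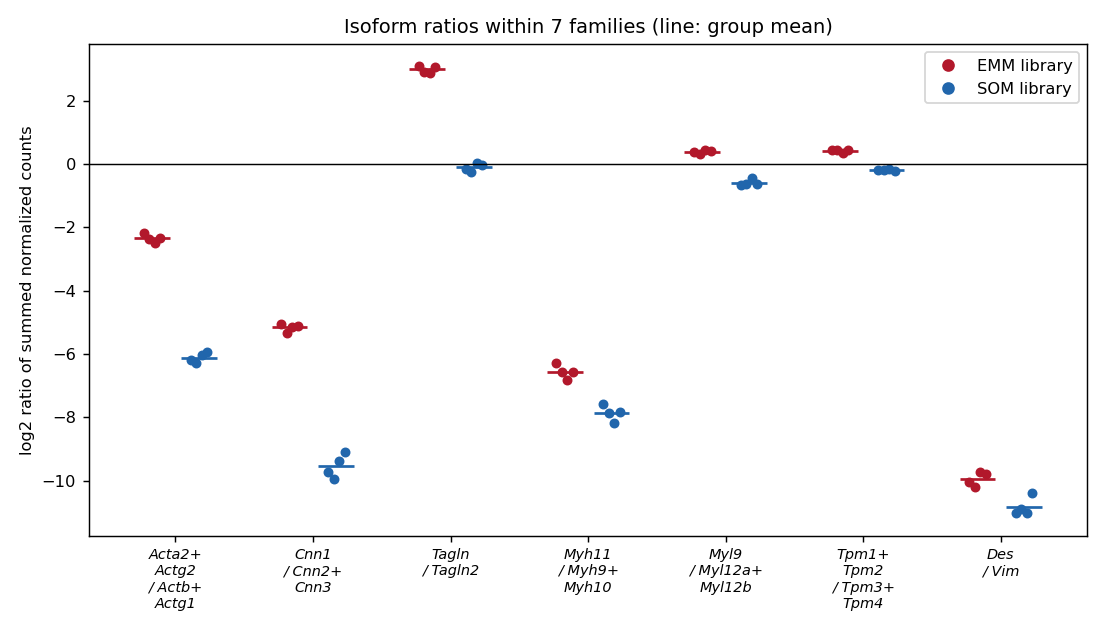
Log2 ratio of summed normalized counts, smooth muscle or muscle genes (for tropomyosin Tpm1 and Tpm2, which also have non-muscle products) over ubiquitous genes (y axis), in each library for 7 families, with a line for each group mean. EMM lies above SOM in every family, by 4.38 for calponin, 3.78 for actin, 3.09 for transgelin and 0.60 for tropomyosin.

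Per kb of exon the order of the genes differed between the regions. In EMM the order was led by Actg1 at 57900 normalized counts per kb, Actb at 47901, Vim at 21344 and Acta2 at 18782, and in SOM by Actb at 44930, Actg1 at 37526 and Vim at 25220, with Acta2 in place 21 at 1065. Of these, Actg1 and Actb in SOM lay close together, with SDs over libraries of 2657 and 2183 per kb. Acta2 made up 14.9% ± 1.13 of the per-kb actin total in EMM and 1.27% ± 0.129 in SOM, while Actg1 made up 45.9% ± 0.618 in EMM and 44.9% ± 2.79 in SOM and Actb 37.9% ± 1.56 in EMM and 53.7% ± 2.93 in SOM. Across the 34 genes the reads came to 2.91% to 3.09% of all reads in EMM libraries and 2.03% to 2.08% in SOM libraries.

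Because many contractile genes are known targets of SRF, promoter windows from 250 bases before to 50 bases after the start were taken from RefSeq on GRCm38.p6, with 33 windows matched for 30 of the 34 genes. Actg2, Actb, Tagln and Myh11 were not analysed here. The CArG box was searched by its pattern of a C pair, 6 bases of A or T and a G pair, which reads the same on both strands. An exact box was found in 5 of 33 windows (15.2%), those of Myl9, Vcl, Cnn2, Actg1 and Myl6, against 1.63% of all 32851 windows. A box with 1 G or C among the 6 core bases was found in 5 of the 33 windows, of Acta2, Myl9, Myl12a and Tpm3, against 8.499% of all windows. The windows of Acta2, which holds a pair of such boxes, and of 4 genes with an exact box are shown as examples from different classes. Their log2 differences were 4.14 (Acta2), 1.75 (Myl9), 1.39 (Vcl), 0.94 (Cnn2) and 0.63 (Actg1), all toward EMM, as for 30 of the 34 genes. The windows of the smooth muscle genes Cnn1, which had the greatest difference, Lmod1, Smtn, Synpo2 and Des held no box of either kind. A link between boxes and the differences was not tested. Capitals mark the boxes, and each window reads 5′ to 3′ on the strand of the gene, at chr19:34255324-34255623 on the minus strand for Acta2, chr2:156775214-156775513 on the plus strand for Myl9, chr14:20929148-20929447 on the plus strand for Vcl, chr10:79988350-79988649 on the plus strand for Cnn2 and chr11:120348446-120348745 on the minus strand for Actg1.
Acta2: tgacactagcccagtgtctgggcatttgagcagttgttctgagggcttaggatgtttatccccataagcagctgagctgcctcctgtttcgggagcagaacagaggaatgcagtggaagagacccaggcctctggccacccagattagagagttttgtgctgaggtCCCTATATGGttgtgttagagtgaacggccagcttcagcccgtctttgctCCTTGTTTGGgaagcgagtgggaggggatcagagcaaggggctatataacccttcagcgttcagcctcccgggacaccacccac
Myl9: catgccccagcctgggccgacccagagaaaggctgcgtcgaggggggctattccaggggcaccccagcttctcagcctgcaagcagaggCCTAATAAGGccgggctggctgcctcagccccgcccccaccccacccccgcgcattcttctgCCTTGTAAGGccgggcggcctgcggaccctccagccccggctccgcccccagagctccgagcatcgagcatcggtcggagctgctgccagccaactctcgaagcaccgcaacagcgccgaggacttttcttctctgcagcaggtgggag
Vcl: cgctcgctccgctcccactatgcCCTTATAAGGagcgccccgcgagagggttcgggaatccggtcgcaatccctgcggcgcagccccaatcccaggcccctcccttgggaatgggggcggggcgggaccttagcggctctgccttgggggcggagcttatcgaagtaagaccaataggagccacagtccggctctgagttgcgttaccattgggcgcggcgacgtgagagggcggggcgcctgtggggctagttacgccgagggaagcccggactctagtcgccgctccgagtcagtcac
Cnn2: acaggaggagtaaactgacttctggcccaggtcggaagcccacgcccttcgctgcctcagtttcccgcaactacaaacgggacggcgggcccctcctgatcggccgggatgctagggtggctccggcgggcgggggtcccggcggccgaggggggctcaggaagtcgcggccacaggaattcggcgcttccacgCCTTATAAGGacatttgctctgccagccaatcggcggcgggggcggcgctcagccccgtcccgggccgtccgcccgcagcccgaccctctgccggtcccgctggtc
Actg1: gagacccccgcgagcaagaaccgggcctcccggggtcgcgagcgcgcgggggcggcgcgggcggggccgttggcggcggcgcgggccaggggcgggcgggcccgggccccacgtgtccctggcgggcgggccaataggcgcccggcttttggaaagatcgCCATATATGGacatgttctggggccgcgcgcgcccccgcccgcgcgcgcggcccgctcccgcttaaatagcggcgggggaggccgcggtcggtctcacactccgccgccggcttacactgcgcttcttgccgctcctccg
The boxes of Acta2 begin 84 and 34 bases before the start, those of Myl9 161 (exact) and 99, and those of Vcl, Cnn2 and Actg1 at 227, 56 and 90. A match describes the letters only, and no binding was measured.

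Srf, which binds CArG boxes, and its coactivators were measured in the same libraries. Srf had 2275, 2205, 2803 and 2628 normalized counts in EMM against 2054, 2543, 2482 and 3336 in SOM, with overlap and no call (log2 difference -0.06, SE 0.15, limma adjusted p = 0.753). Its actin-sensing coactivator genes were not called either, with Mrtfa (listed as Mkl1) at 1378 ± 71.3 in EMM and 1319 ± 96.8 in SOM and Mrtfb (listed as Mkl2) at 1497 ± 123 in EMM and 1350 ± 135 in SOM. Myocd, myocardin, the SRF coactivator specific to smooth and cardiac muscle, had 51.1, 57.8, 81.5 and 37.7 in EMM against 23.9, 15.4, 8.94 and 20.03 in SOM. It was low but higher in EMM without overlap, with 188 reads over the EMM libraries and 85 over the SOM libraries (log2 difference 1.71, SE 0.29, limma adjusted p = 8.83e-05). Of 9 measured SRF regulators and partners, 4 were called toward EMM, 1 toward SOM and 4 were not called, a share toward EMM near the background of 36.1%. Beside Myocd, the 4 were Fhl2 (0.40), Elk4 (0.44) and Gata6 (1.46), the last named after its values were seen, and Elk1 was higher in SOM (-0.24).

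**Figure D5:**
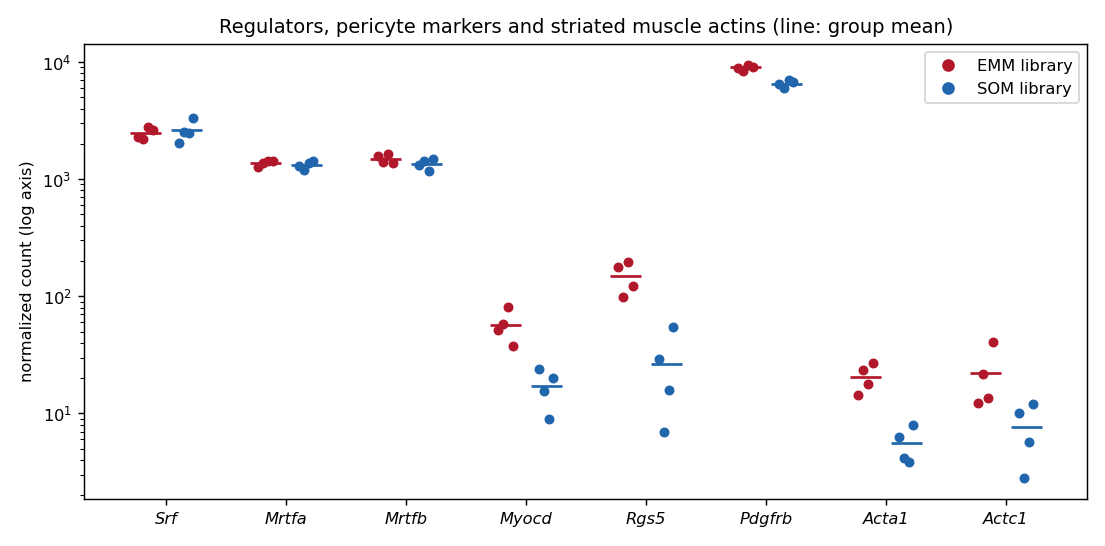
Normalized count (log axis) of SRF and its coactivators, of the pericyte markers Rgs5 and Pdgfrb and of the striated muscle actins Acta1 and Actc1 in each library, with a line for each group mean. Srf, Mrtfa and Mrtfb overlap between EMM and SOM, whereas Myocd, at 37.7 to 81.5 in EMM, lies above its SOM libraries.

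Further genes of the contractile pathway were mostly higher in EMM as well. Of 26 measured further smooth muscle genes, 19 were called toward EMM, 2 toward SOM and 5 were not called, with a median of 1.003. Among the 19, Kcnmb1, named after its values were seen, passed the filter through its EMM values alone. It had 30.3 to 39.8 in EMM and 1.28 to 3.34 in SOM, so its call is no support. The actin-binding gene Nexn stood at 1196 ± 137 in EMM against 282 ± 15.9 in SOM, the integrin gene Itga8 was 2.82-fold and the adhesion adaptor gene Tgfb1i1 2.14-fold higher in EMM, and Sorbs2 (-1.13) and Dmpk (-0.38) were the 2 higher in SOM.

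Actin assembly and adhesion genes gave a similar picture with smaller medians. Of 31 assembly genes, 22 were called toward EMM, 4 toward SOM and 5 were not called, with a median of 0.36. Ezr, ezrin, which ties actin to the membrane, stood at 2208 ± 115 in EMM against 697 ± 45.5 in SOM, and the Arp2/3 subunit genes Arpc5 (1.20) and Arpc1b (0.85) were higher in EMM. The filament elongation genes Enah (-0.24) and Evl (-0.25) and the Arp2/3 activator gene Wasf1 (-0.39) were higher in SOM. Of 32 focal adhesion and crosslinking genes, 23 were called toward EMM, 4 toward SOM and 5 were not called, with a median of 0.53. The count toward SOM was 7 without SOM replicate 2. The integrin beta 1 gene Itgb1 was 2.45-fold higher in EMM and Pdlim2 had a difference of 2.16, whereas Pdlim4 (-1.24) and Tns3 (-0.29) were higher in SOM. Vasp stands in both of these lists. The backgrounds of 36.1% toward EMM and 36.0% toward SOM apply to all of these counts.

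Markers of other cell types differed between the regions in both directions. The backgrounds for their counts of calls are 36.1% of all tested genes toward EMM and 36.0% toward SOM. Of 11 measured pericyte markers, 8 were higher in EMM and 3 in SOM, with a summed normalized count of 19941 to 23537 in EMM libraries and 13637 to 16550 in SOM libraries. The largest part of this sum was Pdgfrb, with means of 8977 in EMM and 6544 in SOM, so the sum does not measure pericytes alone. Rgs5, a pericyte marker, had 178, 99.4, 197 and 123 in EMM against 28.96, 6.997, 15.96 and 54.8 in SOM (log2 difference 2.73, SE 0.60, limma adjusted p = 0.00513). Pdgfrb, which mesenchyme also expresses, was 1.37-fold higher in EMM, Cspg4 (-0.33) and Mcam (-0.47) were higher in SOM, and Higd1b had 0 reads in EMM and 2 in SOM. The 24 skeletal and cardiac muscle markers summed to 872 to 1168 normalized counts in EMM libraries and 441 to 479 in SOM libraries. Only 14 passed the filter, some of them through their EMM values alone, so no count of calls is given. The skeletal myosin genes Myh2, with 422 reads over the EMM libraries and 5 over the SOM libraries, and Myh8, with 1135 in EMM and 217 in SOM, were more abundant in EMM. Myog, a regulator of muscle differentiation named after its values were seen, had 1 read in EMM and 40 in SOM. Myod1, the master regulator of skeletal muscle, had 0 reads in EMM and 7 in SOM, and Myf5 had 0 reads in all 8 libraries. Of 12 macrophage markers, 12 were higher in EMM, with sums of 12193 to 15262 in EMM and 3048 to 3410 in SOM. Endothelial markers, of which 7 of 10 were higher in EMM, 1 in SOM and 2 were not called, summed to 20390 to 26264 in EMM and 15106 to 17616 in SOM. The epithelial genes Krt8 (2.89) and Cdh1 (2.58) were higher in EMM, and the neuronal gene Tubb3 (-1.20) was higher in SOM. The other listed epithelial genes, Epcam (0.29), Krt18 (-0.003), Krt5 (-1.34) and Krt14 (-2.18), named after their values were seen, were not called. The part of these cells in the differences of the 34 genes was not tested.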

How the data were processed

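Total RNA of 4 EMM and 4 SOM pools was sequenced with Illumina TruSeq libraries, per the labels' protocols. The submitters' processing notes name bcl2fastq, STAR, DESeq2 and mm10. For the annotation, the read counter and strand use nothing is stated in the sources used here. The library columns deposited by the authors hold a signal, the read count divided by a size factor. The authors' table also holds the log2 fold change with its SE, the Wald score, the p-value and adjusted p-value. All values (100%) were whole multiples of the smallest one in their column, within 1e-06, so reads were recovered. Columns were matched by title.

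Genes with at least 10 normalized counts in at least 4 libraries were tested on log2(value + 1) with limma 3.58.1 in R 4.3.3 (trend, robust, no block). edgeR 4.0.16, DESeq2 1.42.0 and limma-voom on recovered reads, other scalings, filters and pseudocounts, a replicate block and left-out libraries were alternatives. The fit was tested on simulated data. Coordinates and exon lengths came from GENCODE M21 (GRCm38, the assembly of mm10). The members, classes and lists were chosen with earlier results of these data known. All members are named, and from each list up to 3 genes per direction with the lowest adjusted p and a mean of at least 100, plus 9 regulators and checks. Of the list genes, 6 were matched by older symbols. A further gene list is not reported here.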

Additional observations from a re-analysis of the deposited data

Results flagged for a closer look

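Of 82 sets of 4 libraries examined (34 genes and 7 isoform ratios in each region), 4 held a library far from the other 3, where chance alone would mark about 1 set in 20. Myh10 stood at 20011 normalized counts in SOM replicate 4, against 17447 to 17825 in the other SOM libraries. Myl12b stood at 1724 in SOM replicate 4, against 1872 to 1894 in the others. Smtn stood at 2622 in SOM replicate 3, against 2380 to 2401 in the others. The log2 ratio of Myl9 to Myl12a and Myl12b was -0.44 in SOM replicate 3, against -0.67 to -0.64 in the others. Each of these libraries still lay on the SOM side of every EMM library.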

How the results depend on the processing

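The count of contractile genes higher in EMM stayed between 29 and 31 of 34 in every alternative run, and the count higher in SOM stayed at 2. With edgeR, with DESeq2 and with limma-voom on the recovered reads the counts were 30 and 2, and they were 29 and 2 when EMM replicates 2 and 3 and SOM replicate 4 were left out together. Reads-per-million scaling moved the median of all genes by -0.11 and turned the uncalled differences of Actb (-0.020) and Cnn3 (-0.042). Actb was called without EMM replicate 1 (limma adjusted p = 0.0377). Des had no value with the filter at 50. Reads-per-million scaling also raised the counts higher in SOM to 2 of the SRF list and 8 of the focal adhesion list. With single libraries left out, the focal adhesion count lay between 4 and 7, and it was 2 with those 3 libraries left out together. The cause was not tested.

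Libraries with equal replicate numbers shared little deviation, with correlations from -0.0199 to 0.126 and 3 of 8 libraries closest to their own number. Pools from the same embryos need not deviate together, so these values cannot tell whether EMM and SOM pools shared embryos. With a replicate block, 30 contractile genes were higher in EMM. The exact paired sign-flip permutation test of the isoform ratios cannot go below p = 0.125 with 4 pairs, and gave the same differences of 3.78 for actin, 4.38 for calponin, 3.09 for transgelin, 1.30 for heavy chain, 0.98 for light chain, 0.60 for tropomyosin and 0.89 for intermediate filament. Leaving out those 3 libraries, where the exact p cannot go below 0.100, they were 3.92, 4.61, 3.20, 1.45, 0.98, 0.61 and 1.07 in that order. With single libraries left out, the ratio differences lay between 3.72 and 3.83 for actin, 4.24 and 4.52 for calponin, 3.03 and 3.13 for transgelin, 1.20 and 1.40 for heavy chain, 0.96 and 1.04 for light chain, 0.59 and 0.62 for tropomyosin, and 0.82 and 1.04 for intermediate filament. The last had an exact adjusted p of 0.0571 without any 1 of the EMM replicates, and the others stayed at or below 0.0333. Depth limits mainly Des, Myocd and Rgs5.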

Other observations

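Within a region, the same libraries were often the lowest or the highest over the contractile genes. EMM replicate 2 was the lowest EMM library for 20 of the 34 genes and EMM replicate 4 the highest for 17. In SOM, replicate 2 was lowest for 18 genes, and replicates 3 and 4 were each highest for 14. The same counts were not made over all tested genes, so whether the pattern is particular to the contractile genes was not tested. In the authors' deposited table, 30 of the 34 genes passed an adjusted p of 0.05 toward EMM and 2 toward SOM. Of all 23420 genes in it, 5201 passed toward EMM and 5009 toward SOM. The authors' log2 fold changes were 4.82 for Cnn1, 4.12 for Acta2, 0.09 for Actb and -0.28 for Myl12b.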
